A study of Mus musculus with 15 samples.

Results

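Immediate early genes are the genes that cells switch on first after a stimulus, and 10 of them were followed here library by library: *Fos*, *Fosb*, *Jun*, *Junb*, *Egr1*, *Egr3*, *Ier2*, *Arc*, *Nr4a1* and *Zfp36*. The members were taken by gene symbol from the tables of normalized counts of 2 knockout experiments, and all 10 were found once in each table, among 26835 genes in the *Lhx6* table and 25714 genes in the *Mtg8* table. The study asked how loss of LHX6 or of MTG8 changes gene expression in migrating interneurons of the medial ganglionic eminence (MGE) at embryonic day 14.5. Each of the 15 RNA-seq libraries came from the YFP-positive cells of the cortex of 1 embryo on a C57BL6/CBA background. All embryos carried Nkx2-1-Cre and R26R-YFP fl/fl, so that Cre expressed in the *Nkx2-1* domain of the MGE marks the descendants of those cells with YFP. The *Lhx6* table holds 4 controls (Lhx6+/+) and 5 littermate mutants (Lhx6-/-). The *Mtg8* table holds 3 controls (Mtg8+/+) and 3 libraries labelled mutant (Mtg8-/-), from an allele in which LacZ was placed in *Mtg8*. Both mutations are in the germ line and so also affect cells that were not sorted.

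The transcripts of these genes need no new protein to be made, are short-lived, and rise within minutes of growth factor signals, calcium entry or cell stress, including stress during tissue dissociation. Kinase cascades act on factors already bound at their promoters, such as CREB, serum response factor and the ternary complex factors. FOS and JUN proteins pair to form AP-1, EGR and NR4A proteins are further transcription factors, ARC acts at synapses, and ZFP36 shortens the life of AU-rich mRNAs.

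Depth was 12218422 to 22053032 reads per library. *Lhx6* was at 7247 ± 1093 normalized counts (SD, n = 4) in the *Lhx6* controls and 331 ± 99.7 (n = 5) in the mutants. *Runx1t1*, the gene of MTG8, was 8891 ± 1219 (n = 3) in the *Mtg8* controls and 12845 ± 944 (n = 3) in the libraries labelled *Mtg8* mutant. Its count did not fall with the label, so these libraries are called by their label throughout. Whether the LacZ allele still gives reads of the gene was not tested. *Runx1t1* was also higher in the *Lhx6* mutants, at 17973 ± 5387 (n = 5) against 7449 ± 1072 (n = 4) in their controls (adjusted p = 0.00401 by limma). *Sst*, a marker of one class of MGE interneurons, was 16695 ± 2080 in the *Mtg8* controls and 6615 ± 1259 in the libraries labelled mutant (adjusted p = 0.0713 by limma and 1.12e-05 by DESeq2). *Npy*, a neuropeptide of the same cells, was 5478 ± 668 and 2583 ± 871 (adjusted p = 0.580 by limma and 0.0300 by DESeq2). All 16 MGE interneuron markers examined were above 0 in every library. *Lhx6* mutant 1 stood apart from the other 8 libraries of its table, with 11.3% of all tested genes over 2-fold above the median of the others and 15.9% over 2-fold below it. Library names are dated or undated: all 4 *Lhx6* controls and mutant 6 are undated and the other *Lhx6* mutants dated, whereas both *Mtg8* groups mix the styles. Names also share codes: *Lhx6* controls 1 and 2 share one with mutant 6, *Lhx6* mutants 2 and 5 share another, and *Mtg8* controls 1 and 2 share one with labelled mutant 2. What the dates and codes stand for is not given in the sources used here.

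Promoter sequences of 6 members were found in RefSeq (GRCm38.p6), and the 4 AP-1 genes are shown because *Fos*, *Fosb* and *Junb* were all far above the median of the other libraries in *Lhx6* mutant 1, where *Jun* was at its lowest. Each line gives the 150 bases just before the transcription start in RefSeq, 5′ to 3′ on the gene's strand: chr12:85473740-85473889 (+) for *Fos*, chr7:19310046-19310195 (−) for *Fosb*, chr8:84978749-84978898 (−) for *Junb* and chr4:95052223-95052372 (−) for *Jun*. Capitals mark TGACG, the core of the site bound by CREB, TGACATCA, a site of the AP-1 and CREB type, TATAAA, the TATA box, and GCGGGGGCG, the site bound by EGR proteins, each searched on both strands.
Fos: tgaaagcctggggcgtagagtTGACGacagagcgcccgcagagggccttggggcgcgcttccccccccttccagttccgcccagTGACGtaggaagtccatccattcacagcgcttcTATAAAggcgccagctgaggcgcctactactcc
Fosb: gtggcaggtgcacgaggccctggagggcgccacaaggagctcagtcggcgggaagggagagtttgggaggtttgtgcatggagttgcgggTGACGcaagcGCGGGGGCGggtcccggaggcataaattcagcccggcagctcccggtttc
Junb: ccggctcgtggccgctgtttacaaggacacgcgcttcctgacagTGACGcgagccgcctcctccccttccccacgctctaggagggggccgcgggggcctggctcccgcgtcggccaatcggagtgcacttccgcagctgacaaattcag
Jun: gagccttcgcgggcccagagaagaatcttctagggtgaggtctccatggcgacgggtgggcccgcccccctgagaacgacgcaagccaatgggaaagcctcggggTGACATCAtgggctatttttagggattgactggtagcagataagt
The windows of *Fos*, *Fosb* and *Junb* held 2, 1 and 1 copies of TGACG, which was found in 13.5% of 27025 promoter windows of the same length. *Jun* held no TGACG but 1 TGACATCA (2.41% of windows). TATAAA was found in *Fos* (8.08% of windows) and GCGGGGGCG in *Fosb* (2.11% of windows), and no capitalised match overlaps another. The windows of *Nr4a1*, with 2 TGACG and 1 GCGGGGGCG, and *Zfp36*, with 1 GCGGGGGCG, are not shown. In *Lhx6* mutant 1 *Nr4a1* was at -1.59, from 2 reads, and *Zfp36* at 1.59 relative to the median of the other libraries on the log2 scale. A link between these sites and the levels was not tested. All 150 bases of the *Zfp36* window and 6 of the *Fosb* window lie in exons of the deposited gene models, and *Egr1*, *Egr3*, *Ier2* and *Arc* were not matched.

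Levels were compared between genes only per length. In the *Lhx6* controls *Ier2* stood highest, at a median of 337 normalized counts per kilobase of exon (range 250.4 to 388), above *Jun* at 158 (150.1 to 226). *Fos* followed at 99.5, but its range of 73.2 to 562 spanned that of both. *Zfp36* had a median of 17.8, *Junb* 7.58, *Egr1* 4.62, *Nr4a1* 2.92, *Arc* 1.99, *Egr3* 1.80 and *Fosb* 0.148, and neighbours in this order overlapped from *Zfp36* downwards. The order differed in the *Mtg8* controls, where *Fos* led at 238 (18.3 to 375), overlapping *Jun* at 151 (131 to 157). *Zfp36* at 28.0, *Egr1* at 23.4 and *Junb* at 19.4 followed and overlapped. *Ier2* was only at 11.7 (8.40 to 12.8), above *Arc* at 7.31 (6.98 to 7.68). *Nr4a1* at 2.74, *Fosb* at 1.07 and *Egr3* at 0.254 were lowest.

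The members differed in how steady they were among embryos of one group. In the *Lhx6* table the within-group SD on the log2 scale was 2.55 for *Egr1*, larger than in 99.7% of all tested genes, 1.76 for *Egr3* (96.6%), 1.62 for *Fos* (95.3%), 1.22 for *Junb* (91.1%) and 0.78 for *Zfp36* (81.8%). *Jun* (0.46, 58.5%) and *Ier2* (0.29, 30.8%) were ordinary in this respect. In the *Mtg8* table *Fos* (1.96, 99.5%), *Fosb* (1.499, 98.9%), *Ier2* (1.17, 97.6%) and *Egr1* (0.93, 94.6%) varied most. *Nr4a1* (0.70, 87.8%), *Junb* (0.54, 78.3%), *Jun* (0.44, 67.4%), *Zfp36* (0.39, 59.9%) and *Arc* (0.38, 57.7%) varied less. Genes of low count vary more than others for counting reasons alone, and *Fos*, with over 40 reads in every library of both tables, is not among them.

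**Figure D1:**
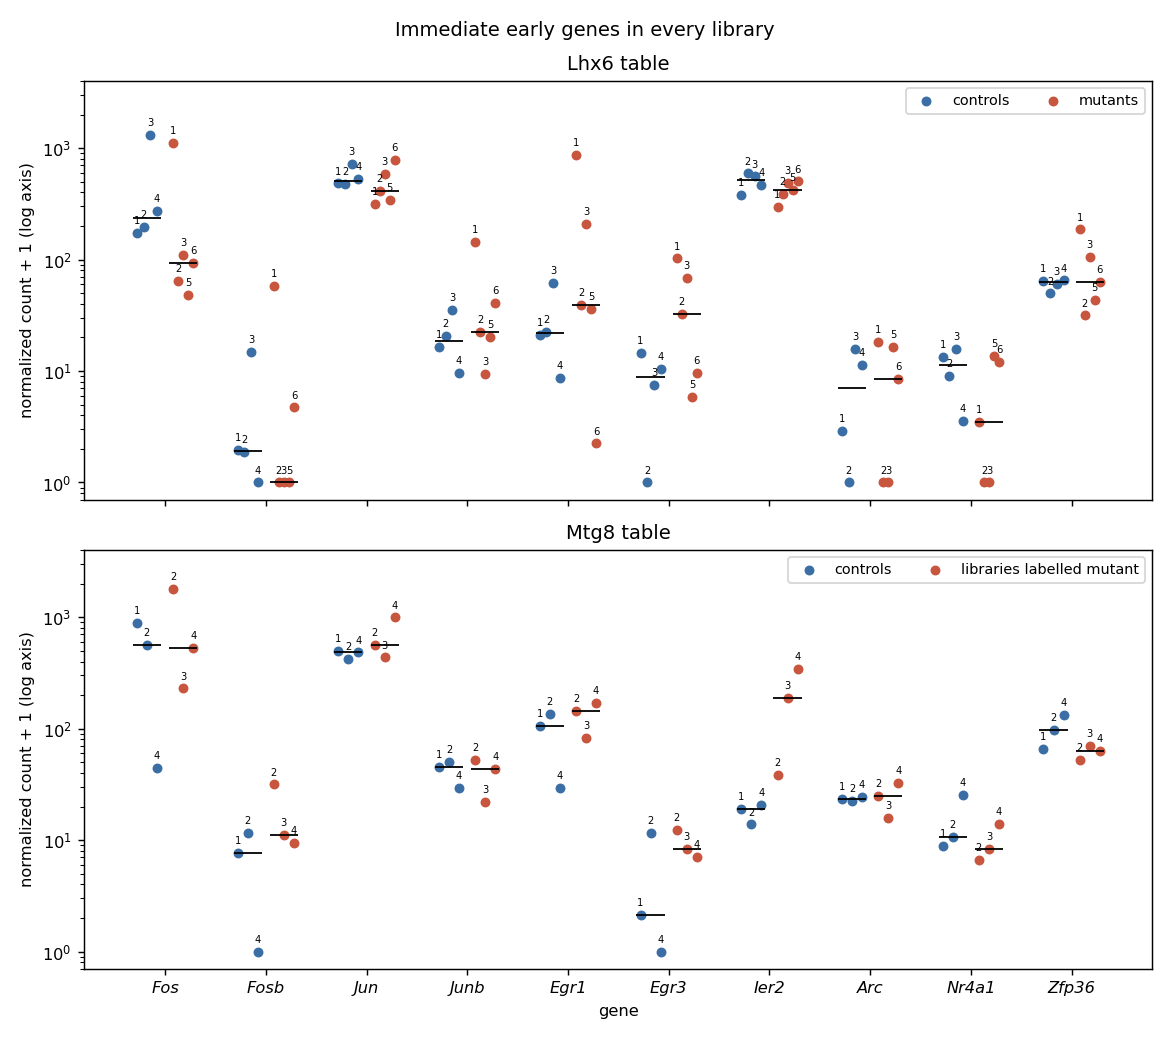
Normalized count plus 1 (log axis) of each of the 10 genes in every library of the *Lhx6* table (top) and the *Mtg8* table (bottom), with the replicate number above each point and a bar at the group median. *Lhx6* mutant 1 is the highest point for *Fosb*, *Junb*, *Egr1*, *Egr3*, *Arc* and *Zfp36*, and only *Ier2* in the *Mtg8* table has groups that do not overlap.

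In the comparison that asks what loss of LHX6 changes, none of the 7 tested members passed the test against the spread between embryos. Of the 7 members whose mean normalized count reached 10, limma on log2(normalized count + 1) with Benjamini-Hochberg adjustment over all 16727 genes tested called 0, where it called 1.71% of all genes. edgeR and DESeq2 on the recovered reads also called 0 members, against 1.67% and 4.53% of all genes. At an unadjusted p under 0.05, limma listed only *Egr3*, against 12.7% of all genes, but *Egr3* reached the minimum mean only through the mutants, where it is higher (means of 7.33 and 42.7), so the value is only a description. No member had groups that did not overlap, against 6.22% of all genes. *Fosb*, *Arc* and *Nr4a1*, with means of 8.48, 7.46 and 7.11, were below the minimum and not tested. The median log2 fold change of the 7 tested members was 0.23, and that of all tested genes was -0.04.

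Among the AP-1 genes, *Fos* (chr12:85473890-85477273, +) was at 172, 197, 1321 and 271 normalized counts in controls 1, 2, 3 and 4. In mutants 1, 2, 3, 5 and 6 it was at 1112, 62.9, 109, 47.5 and 92.9. Control 3 and mutant 1 stood far above the rest, while the other 4 mutants all lay below the other 3 controls. The log2 fold change was -1.37 (SE 0.83, adjusted p = 0.518 by limma), and DESeq2 gave *Fos* and *Fosb* no p-value, as it does where single libraries dominate a fit. Without mutant 1 the log2 fold change of *Fos* was -2.15 (adjusted p = 0.0814), which still missed the threshold, and without control 3 it was -0.71 (adjusted p = 0.757). With library quality weights in limma it was -2.28 (adjusted p = 0.0618), which also missed the threshold. On the recovered reads it was -0.81 by edgeR (adjusted p = 0.736) and -0.78 by DESeq2. *Fosb* (chr7:19302696-19310051, −), a close relative of *Fos*, was at 0.961, 0.886, 13.8 and 0 in the controls and at 56.9, 0, 0, 0 and 3.71 in the mutants. Its 2 highest libraries were those where *Fos* was highest, mutant 1 and control 3, and elsewhere it had at most 3 reads. A count of 0 allows up to 3 reads, or 2.57 to 2.91 normalized counts in those libraries, and such limits cover counting error only.

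The JUN partners of FOS behaved differently from each other. *Jun* (chr4:95049034-95052222, −) was at 481, 479, 720.4 and 529 in the controls and at 316, 410.0, 589.6, 344 and 787 in the mutants, and mutant 1, where *Fosb* peaked, was its lowest library. Its log2 fold change was -0.24 (SE 0.26, adjusted p = 0.709 by limma), and -0.11 without mutant 1 or without control 3 and -0.43 without mutant 6. *Junb* (chr8:84974484-84978718, −) was at 15.4, 19.5, 34.1 and 8.55 in the controls and at 142, 21.3, 8.38, 19.4 and 39.6 in the mutants. Mutant 1 stood alone at the top and the other 4 mutants spanned the range of the controls. Its log2 fold change was 0.72 (SE 0.70, adjusted p = 0.680 by limma) and fell to 0.16 without mutant 1. By limma without mutant 3 it was 1.14 (adjusted p = 0.343). On the recovered reads it was 1.23 by edgeR (adjusted p = 0.538) and 1.25 by DESeq2 (adjusted p = 0.455). The exons of *Jun*, *Junb* and *Zfp36* overlap those of *Junos*, *Prdx2* and *Gm44710* on the other strand. How reads in these overlaps were counted is not given, so they may have been left out or given to the wrong gene.

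The EGR genes had the widest spread of the 7 tested members. *Egr1* (chr18:34859823-34864984, +), a zinc finger factor induced by growth factor signalling, was at 20.2, 21.3, 60.8 and 7.70 in the controls. In the mutants it was at 875, 37.9, 207, 34.9 and 1.24, where 1.24 in mutant 6 is 1 read, below the 3.71 that 3 reads give there. Mutants 1 and 3 were above every control, mutant 6 below every control, and the log2 fold change was 1.33 (SE 1.31, adjusted p = 0.680 by limma). On the recovered reads it was 3.05 by edgeR (adjusted p = 0.302) and 3.07 by DESeq2 (adjusted p = 0.217). By limma without mutant 1 it was 0.34, and without mutant 6 it was 2.49 (adjusted p = 0.202). With library quality weights in limma it was 0.55 (adjusted p = 0.757). *Egr3* (chr14:70077203-70082614, +), a related factor, was at 13.5, 0, 6.45 and 9.41 in the controls and at 101, 31.5, 67.1, 4.84 and 8.67 in the mutants. Mutants 1, 2 and 3 were above every control and mutants 5 and 6 were within the controls' range. Its log2 fold change was 2.19 (SE 0.99, adjusted p = 0.386 by limma), 2.52 by edgeR (adjusted p = 0.301) and 2.54 by DESeq2 (adjusted p = 0.106). By limma it was 1.34 (adjusted p = 0.690) without control 2, the library at 0, 1.26 (adjusted p = 0.358) with a pseudocount of 10 and 3.68 (adjusted p = 0.190) in the replicate block fit. With library quality weights in limma it was 1.11 (adjusted p = 0.490). The 4 controls and mutant 6 share the undated name style, and mutant 6 against those controls gave log2 differences of -3.33 for *Egr1*, 0.74 for *Egr3* and -1.83 for *Fos*, with no spread within that single mutant. The size of the *Egr1* difference is not exact, since it rests on the 1 read of mutant 6. Within the dated style there is no control, so style and genotype cannot be told apart for the other 4 mutants.

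The remaining members showed no shift between groups that exceeded their spread. *Ier2* (chr8:84661331-84662854, −), a small nuclear protein of the early response, was at 382, 591, 557 and 469 in the controls and at 297, 384, 485, 420.4 and 501 in the mutants. Its log2 fold change was -0.26 (SE 0.20, adjusted p = 0.599 by limma), within a 2-fold range over all 9 libraries. *Zfp36* (chr7:28376784-28380253, −) was steady in the controls at 63.4, 48.7, 59.9 and 64.1, and was at 186, 30.5, 104, 42.6 and 61.9 in the mutants. Mutants 1 and 3, where *Egr1* and *Egr3* were high, were also its highest libraries, with a log2 fold change of 0.23 (SE 0.46, adjusted p = 0.847 by limma). On the recovered reads that value was 0.51 by edgeR (adjusted p = 0.675) and 0.52 by DESeq2 (adjusted p = 0.674). *Arc* (chr15:74669083-74672570, −) was at 1.92, 0, 14.7 and 10.3 in the controls and at 17.3, 0, 0, 15.5 and 7.43 in the mutants. *Nr4a1* (chr15:101254269-101274795, +), an orphan nuclear receptor, was at 12.5, 7.98, 14.7 and 2.57 in the controls and at 2.47, 0, 0, 12.6 and 11.1 in the mutants. Both were at 0 in mutants 2 and 3 and rest on at most 16 reads per library. In exact two-sided permutation tests of the 10 members (4 against 5 libraries, smallest possible p = 0.00794), the smallest p was 0.127, for *Egr3*.

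Mutant 1 was the highest of the 9 libraries for 6 of the 10 members (*Fosb*, *Junb*, *Egr1*, *Egr3*, *Arc* and *Zfp36*), where it was the highest for 26.4% of all tested genes. It was over 2-fold above the median of the other libraries for 7 members, *Fos* included, where 11.3% of all tested genes were. *Fosb* and *Arc*, in both counts, were below the minimum mean and are not among the tested genes. *Egr3*, also in both, reached that minimum only through the mutants. *Jun* and *Ier2* were lowest in mutant 1, so the members did not rise together there. In mutant 1 *Egr1* stood 4.95, *Fosb* 5.40, *Egr3* 3.35, *Fos* 3.01 and *Junb* 2.81 above the median of the other libraries on the log2 scale. Control 3 was over 2-fold above the median of the others for 5 members, against 2.87% of all tested genes: *Fosb* by 3.43, *Fos* by 3.26, *Arc* by 1.66, *Nr4a1* by 1.48 and *Egr1* by 1.1 on the log2 scale. Of these only *Fos* and *Egr1* are among the tested genes, since *Fosb*, *Arc* and *Nr4a1* were below the minimum mean. *Junb* was 0.78 above the median of the others, *Zfp36* 0.06 below and *Egr3* 0.72 below. Mutant 3 had *Egr1* 2.88 and *Egr3* 2.76 above but *Fos* 0.75 below. The summed normalized count of the 10 members was 3106 in mutant 1 and 2803 in control 3, and 942 to 1570.3 in the other 7 libraries.

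**Figure D2:**
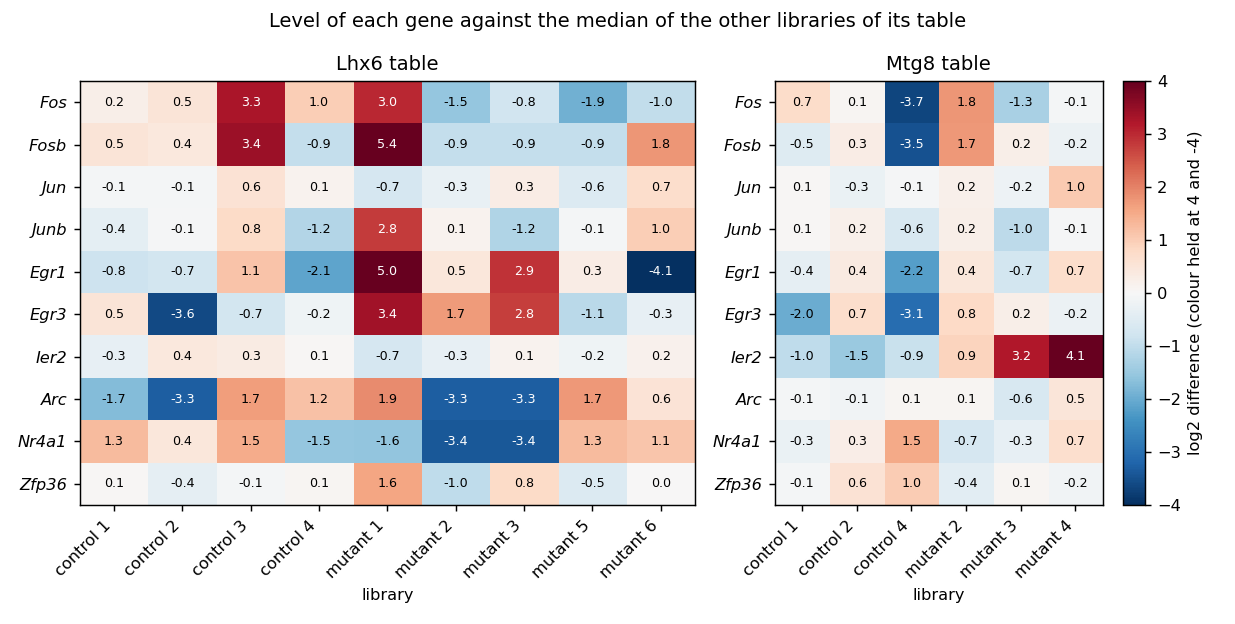
Log2 difference of each gene in each library from the median of the other libraries of its table, for the *Lhx6* table (left) and the *Mtg8* table (right), red above and blue below. *Lhx6* mutant 1 and control 3 share high *Fos* and *Fosb*, *Lhx6* mutants 1 and 3 share high *Egr1* and *Egr3*, and in the *Mtg8* table control 4 is low for *Fos*, *Fosb*, *Egr1* and *Egr3*.

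Markers of other cells and heat shock genes were examined in the same libraries. The summed normalized count of 6 erythroid markers was 58732 in control 3 and 1835 to 20444 in the others, and that of 9 mural and fibroblast markers was 1046 in control 3, 1119 in mutant 3 and 82.9 to 361 in the others. Mutant 1 had the lowest mural and fibroblast sum and an erythroid sum of 17292. The 8 endothelial markers summed to 23.9 to 272 in the whole table, with up to 6 of them at 0 in a library, and the 10 microglia and macrophage markers to 525 in mutant 3, 240.1 in mutant 1, 231 in control 3 and 24.2 to 248.9 in the others, with up to 4 at 0. Mutant 3, where *Egr1* and *Egr3* were high, also had the highest sum of the 5 oligodendrocyte precursor markers, 326 against 54.7 to 193, and the 9 radial glia markers summed to 14487 in mutant 1, 17061 in mutant 6, 9178 in mutant 3 and 10137 to 13119 in the others. Of these 9 DESeq2 called 1, *Sox2*, higher in the mutants (1.06, adjusted p = 0.0107, limma 0.115). Of 9 pyramidal lineage markers it called 1, *Fezf2*, lower in the mutants (-0.56, adjusted p = 0.00276, limma 0.0748). Both had groups that did not overlap, and DESeq2 called 4.53% of all genes. Heat shock genes (13) include *Hspa8*, an abundant constitutive chaperone, which was at 21150.0 in mutant 1 and 31444 to 54131 in the others. The other 12 summed to 40008 in mutant 1, 40205 in control 3 and 42065 to 46027 in the others, with the stress-inducible *Hspa1a* at 6.19 in mutant 1 against 3.42 to 21.2, and 0 of 11 tested were called by limma (DESeq2 also 0). The part of these cells in the levels of *Fos* and *Egr1* was not tested. In bulk libraries fewer expressing cells and less RNA per cell cannot be told apart.

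In the comparison of the libraries labelled *Mtg8* mutant with their controls, *Ier2* was the 1 member higher by DESeq2, and limma did not call it. limma called 0 of the 9 tested members, and it called 0 of all 16132 genes. At an unadjusted p under 0.05 it listed only *Ier2*, against 5.49% of all genes. DESeq2 on the recovered reads called *Ier2* alone among the members, where it called 0.152% of all genes, and edgeR called 0 members (0.0062% of all genes). *Ier2* was also the only member whose groups did not overlap, against 10.2% of all genes. *Egr3*, with a mean of 6.10, was below the minimum and not tested. The median log2 fold change of the tested members was 0.42, and that of all tested genes was -0.01.

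*Ier2* was at 17.9, 12.8 and 19.6 normalized counts in controls 1, 2 and 4, from 12 to 20 reads each. In the libraries labelled mutant 2, 3 and 4 it was at 37.4, 188 and 342, from 33, 205 and 447 reads. The controls lay close together at 16.7 ± 3.52 (SD, n = 3), whereas the labelled mutants spread over 189 ± 152 (n = 3), with mutant 2 nearer to the controls than to the other 2. The log2 fold change was 2.95 (SE 0.64, unadjusted p = 0.000528, adjusted p = 0.636 by limma), 3.51 by edgeR (adjusted p = 0.332) and 3.50 (SE 0.56, adjusted p = 5.2e-06) by DESeq2. Without labelled mutant 2 limma also called it, with 3.86 (adjusted p = 0.0134), and so did the replicate block fit, with 2.77 (adjusted p = 6.73e-06) and 1 residual degree of freedom. With the code shared by library names as a block it was 1.25 (adjusted p = 0.287). Within the dated libraries the difference was 1.25 (controls 1 and 2 against mutant 2) and within the undated ones 3.63 (control 4 against mutants 3 and 4) on the log2 scale. The exact two-sided permutation test gave p = 0.1, the smallest that 3 against 3 libraries allow.

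In the *Mtg8* table GC-rich transcripts were highest in the libraries where *Ier2* was highest, which did not hold in the *Lhx6* table. The longest *Ier2* transcript has a GC content of 60.9%, higher than that of 97.7% of the tested genes. The 563 tested genes with a GC content of at least 60% had a median centred log2 level of 0.17 in labelled mutant 3 and 0.37 in labelled mutant 4, the libraries where *Ier2* was highest. *Ier2* was 3.20 and 4.06 above the median of the other libraries there on the log2 scale. In controls 1, 2 and 4 the median of these GC-rich genes was -0.02, -0.07 and -0.13. In labelled mutant 2, where *Ier2* was above every control, that median was -0.23. *Junb*, with a still higher GC content of 62.6%, was at 21.1 and 42.8 in labelled mutants 3 and 4, within or below the range of its controls. In the *Lhx6* table the median of the genes of at least 60% GC was highest in mutant 1 (0.29) and control 3 (0.21) and -0.13 to 0.09 elsewhere. *Ier2* was at its lowest in mutant 1, at 297 normalized counts. Mutant 1 was also the highest library for the 1313 genes under 40% GC, at 0.22 against -0.08 to 0.16. Marker sums also differed between the *Mtg8* groups. The 9 radial glia markers summed to 7014 to 8622 in the controls and 9058 to 14260 in the labelled mutants, highest in mutant 3 and lowest of these in mutant 4, where *Ier2* was highest, and the 16 MGE interneuron markers to 84485 to 90085 and 53539 to 69389. Of 9 pyramidal lineage markers DESeq2 called 2, both higher in the labelled mutants with groups that did not overlap, *Neurod2* (1.12, adjusted p = 0.0265; limma 0.582) and *Emx1* (1.80, adjusted p = 0.0493; limma 0.859), while limma called 0. The 5 oligodendrocyte precursor markers summed to 30.2, 6.40 and 304 in controls 1, 2 and 4 and to 51.0, 246 and 526 in labelled mutants 2, 3 and 4, with overlap of the groups through control 4, where *Ier2* was low, and with 3 of the 5 at 0 in control 2. The part of GC content and of these cells in the levels of *Ier2* was not tested.

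**Figure D3:**
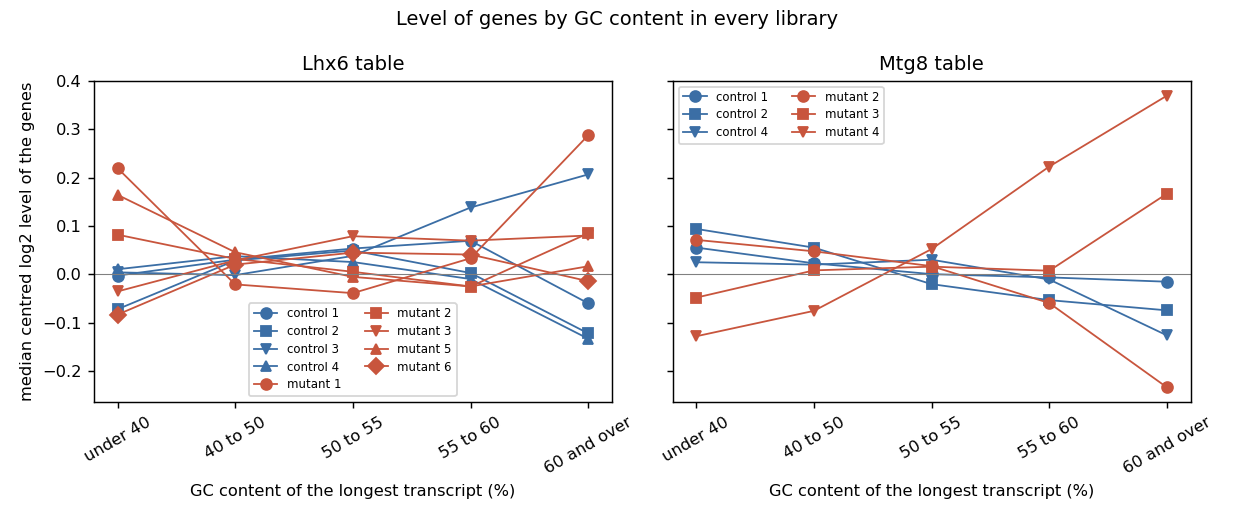
Median centred log2 level of all tested genes grouped by the GC content of their longest transcript, 1 line per library, controls in blue and mutants in red, for the *Lhx6* table (left) and the *Mtg8* table (right). Genes of 60% GC and over are highest in *Mtg8* mutants 3 and 4 and in *Lhx6* mutant 1 and control 3.

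Of the AP-1 genes of the *Mtg8* table *Fos* and *Fosb* were widely spread, and *Jun* and *Junb* less so. *Fos* was at 882, 559.9 and 43.0 in controls 1, 2 and 4 and at 1793, 229 and 528 in labelled mutants 2, 3 and 4, a 41.7-fold range. Control 4 was the lowest and mutant 2 the highest library, and the groups overlapped over the whole table. Within each name style every labelled mutant was above every control, by 1.35 on the log2 scale in the dated libraries (controls 1 and 2 against mutant 2) and by 2.99 in the undated ones (control 4 against mutants 3 and 4). Such an order in both styles held for 5 of the 10 members (*Fos*, *Fosb*, *Egr1*, *Egr3* and *Ier2*), 4 of the 9 tested, against 9.96% of all tested genes. *Fosb* was tested only because of its level in the labelled mutants, so these counts are only a description. In the dated libraries *Egr3* had 10 reads in both control 2 and mutant 2, and *Egr1* 126 and 127, so their order there rests on the scaling. The same order held for the summed pyramidal lineage markers (10377 and 13770.0 against 22290, 5635 against 11588 and 8795). It also held for the summed radial glia markers (7597 and 7014 against 9694, 8622 against 14260 and 9058). The log2 fold change of *Fos* was 1.11 (SE 0.93, adjusted p = 0.889 by limma) and turned to -0.23 without control 4, the 1 undated control. It was 0.32 without labelled mutant 2 and 0.40 with library quality weights. With the name style as a covariate it was 2.17 (unadjusted p = 0.000221, adjusted p = 0.397), with the code shared by library names as a block 1.35 (adjusted p = 0.112), and in the replicate block fit 2.63, a call (adjusted p = 1.62e-15) in a fit with 1 residual degree of freedom. *Fosb* followed the same extremes, at 6.71, 10.7 and 0 in the controls and 30.6, 10.1 and 8.41 in the labelled mutants, with a log2 fold change of 1.73 (SE 0.92, adjusted p = 0.859, in a gene that reached the minimum mean only through the labelled mutants) that was 0.65 without control 4, and within-style differences of 1.74 (dated) and 3.35 (undated). *Jun* was at 501, 419 and 482 in the controls and 560.8, 435 and 995 in the labelled mutants, with only mutant 4 standing apart (log2 fold change 0.42, SE 0.29, adjusted p = 0.870). Without mutant 4 that value was 0.08 and without mutant 3 it was 0.68. *Junb* was at 44.7, 49.1 and 28.4 in the controls and 51.0, 21.1 and 42.8 in the labelled mutants, with full overlap of the groups (-0.14, SE 0.43, adjusted p = 0.971).

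*Egr1* was at 105, 134 and 28.4 in the controls and at 144, 80.9 and 170.5 in the labelled mutants. As for *Fos*, control 4 was the lowest, and the other 5 libraries lay within 80.9 to 170.5, a narrower range than in the *Lhx6* table. Its log2 fold change was 0.76 (SE 0.51, adjusted p = 0.870 by limma) and 0.08 without control 4, with within-style differences of 0.27 (dated) and 2.01 (undated). *Egr3* was at 1.12, 10.7 and 0 in the controls and 11.3, 7.35 and 6.12 in the labelled mutants, from at most 10 reads, with within-style differences of 1.31 and 2.95 in the same order. *Zfp36* was at 64.8, 97.0 and 131 in the controls and at 51.0, 68.9 and 61.9 in the labelled mutants (-0.63, SE 0.34, adjusted p = 0.859, and -0.39 without control 4), with control 4 this time the highest. *Nr4a1* was also highest in control 4, at 24.5, with 7.82 and 9.60 in the other controls and 5.66, 7.35 and 13 in the labelled mutants (-0.54, SE 0.62, adjusted p = 0.917, and -0.07 without control 4), and it reached the minimum mean only through the controls. *Arc* was the steadiest member, at 22.4, 21.3 and 23.5 in the controls and 23.8, 14.7 and 31.3 in the labelled mutants (-0.01, SE 0.44, adjusted p = 0.999).

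**Figure D4:**
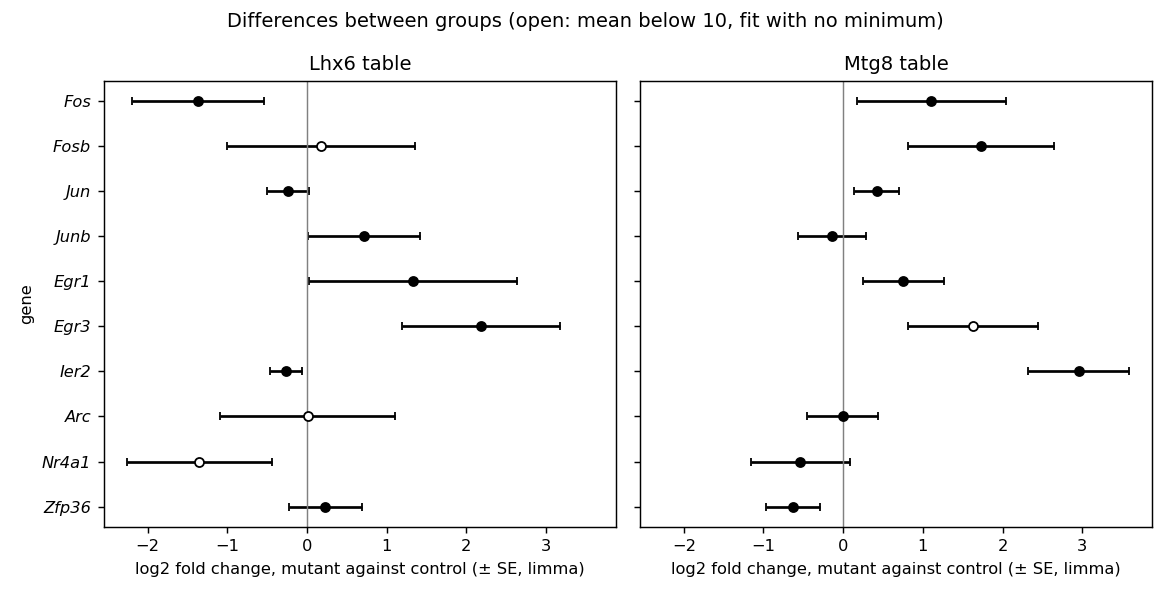
Log2 fold change of each gene in mutants against controls with its standard error from limma, for the *Lhx6* table (left) and the *Mtg8* table (right), filled where the gene was tested and open where its mean was below 10 and the value comes from a fit with no minimum. The value for *Ier2* in the *Mtg8* table, 2.95, lies farthest from 0, and 0 of the filled points passed the adjusted threshold.

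Control 4 had the lowest level of *Fos*, *Fosb*, *Egr1* and *Egr3* in the *Mtg8* table, at -3.67, -3.47, -2.20 and -3.06 relative to the median of the other libraries on the log2 scale. These 4 of the 10 members were over 2-fold below it, against 4.32% of all tested genes. Of these *Egr3* was not tested, and *Fosb* was tested only because of its level in the labelled mutants. *Nr4a1* was 1.53 and *Zfp36* 1.0 above the median of the other libraries in control 4, so the members did not fall together. Labelled mutant 2 was the highest library for 4 members, the untested *Egr3* among them, and labelled mutant 4 for 4 members. They were the highest for 14.9% and 21% of all tested genes. Beside these values, the summed count of 9 pyramidal lineage markers was 22290 in labelled mutant 2, where *Fos* was highest, 5635 in control 4, where it was lowest, and 8795 to 13770.0 in the other 4. The microglia and macrophage sum was 7.83 in control 4, with 7 of 10 of these markers at 0, 1029 in control 2 and 76.0 to 170.02 in the others. Control 4 also had the highest sums of the 8 endothelial markers, 298 against 42.5 to 203 in the others, and of the 9 mural and fibroblast markers, 588 against 165 to 409. The part of these cells in the levels of *Fos*, *Fosb*, *Egr1*, *Egr3*, *Nr4a1* and *Zfp36* was not tested.

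The level of *Ier2* also differed between the control libraries of the 2 experiments, which were normalized separately and are only set side by side. It was 33.0 ± 6.46 RPM (reads per 1000000 counted reads, SD, n = 4, range 25.2 to 39.6) in the *Lhx6* controls and 0.897 ± 0.186 (n = 3, range 0.682 to 1.02) in the *Mtg8* controls, a ratio of 36.8. Of 17196 genes found in both tables, 20 had a ratio at least as large. *Jun*, at 36.4 ± 7.54 and 25.1 ± 2.71 RPM, had a ratio of 1.45, and *Fos* one of 1.198. The *Fos* ratio rests on *Lhx6* control 3, at 87.3 RPM. The other *Lhx6* controls, at 11.4 to 17.5, were all below the *Mtg8* control mean of 27.0. The *Mtg8* controls themselves ran from 2.24 to 48.9 RPM, so the groups overlapped. *Egr1* (0.377) and *Arc* (0.368) were lower in the *Lhx6* controls, and the other 5 members had ratios of 0.585 to 2.29. Of 14 other transcription factors of the immediate early class, 6 were over 2-fold higher in the *Lhx6* controls and 0 over 2-fold lower (median ratio 1.28), and of 28 other early response effectors 9 were higher and 1 lower (median ratio 1.43), where 17.8% of all genes were over 2-fold higher and 5.32% over 2-fold lower. Among them, named after their values were seen, were *Ier5l* (7.42), *Ier5* (6.07), *Jund* (5.56) and *Btg1* (3.36). The median ratio over all genes was 1.15, and over the 625 genes with a GC content of at least 60% it was 1.69. Of those 625 genes 44.2% were over 2-fold higher in the *Lhx6* controls and 7.04% over 2-fold lower. Both name styles occur among the *Mtg8* controls, and *Ier2* was low in all 3. The 20.3 RPM of *Ier2* in labelled *Mtg8* mutant 4 fell just below the lowest *Lhx6* control, and above the lowest *Lhx6* mutant, at 18.

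**Figure D5:**
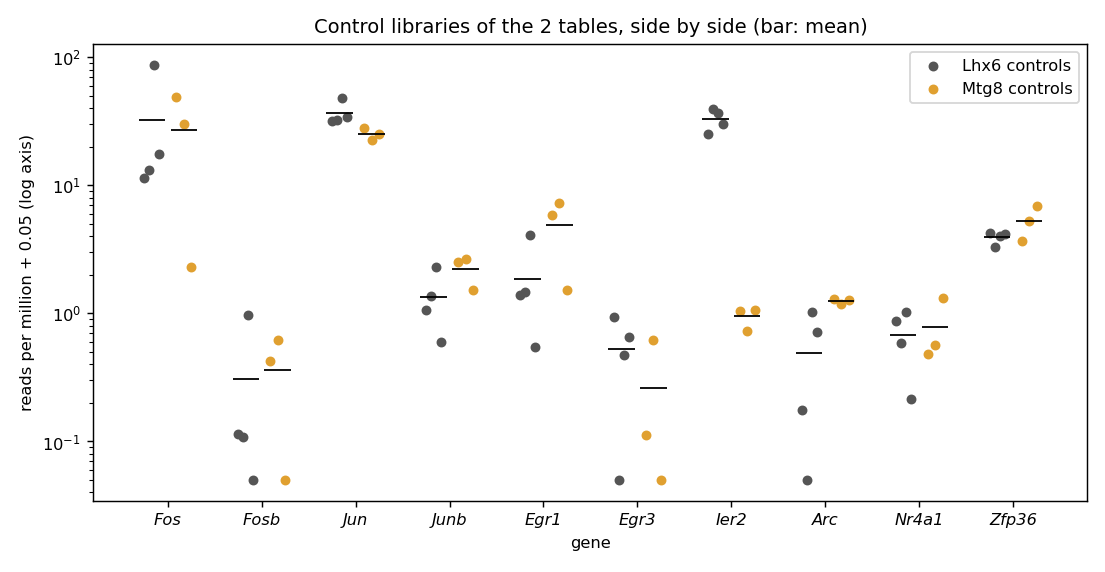
RPM plus 0.05 (log axis) of each gene in the 4 *Lhx6* controls (grey) and the 3 *Mtg8* controls (yellow), with bars at the means. *Ier2* alone is separated by more than an order of magnitude, at means of 33.0 and 0.897.

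Other early response genes were examined in the *Lhx6* table, where limma called 1.71% and DESeq2 4.53% of all genes. Their difference from the members was not tested. Of 14 tested transcription factors of the immediate early class, limma called 1: *Myc*, a regulator of growth, fell by 1.46 on the log2 scale (SE 0.28, adjusted p = 0.0163), from 461 ± 63.0 normalized counts (n = 4). Of 28 tested early response effectors, 2 rose and 2 fell. *Dusp4*, a phosphatase that turns off ERK signalling, rose by 1.49 (SE 0.33, adjusted p = 0.0370) and *Btg1*, an antiproliferative factor, by 0.66 (SE 0.12, adjusted p = 0.01005). *Arl4d*, a small GTPase, fell by 1.86 (SE 0.18, adjusted p = 9.46e-05) and *Tiparp*, an ADP-ribosyltransferase, by 0.75 (SE 0.15, adjusted p = 0.0231). Of 27 upstream kinases and promoter-binding factors, limma called *Rps6ka5* alone. This kinase, which acts on CREB and histone H3, fell by 1.89 (SE 0.25, adjusted p = 0.00114). DESeq2 also called *Camk4* (1.79, adjusted p = 0.0393), a calcium-dependent kinase of CREB, and *Crebbp* (0.48, adjusted p = 0.0423), its coactivator, both higher. Of 5 tested late activity-response genes, 0 were called by limma or DESeq2. The largest differences there were *Inhba* (-1.08, adjusted p = 0.696), *Scg2* (-0.71, adjusted p = 0.419) and *Nrn1* (-0.50, adjusted p = 0.630). The sign for *Inhba* depended on the scale, since its mean normalized count was 21.5 in the controls and 24.4 in the mutants, where the lowest value was 0, and DESeq2 gave 0.18. The median log2 fold changes of these 4 lists, -0.01, 0.10, 0.01 and -0.50 in the order given, stand beside -0.04 for all tested genes.

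Of these lists 0 genes were called in the *Mtg8* table by limma or DESeq2, of 12, 28, 27 and 6 tested. The median log2 fold changes were 0.18 for the other transcription factors, 0.10 for the effectors, -0.10 for the kinases and promoter-binding factors and 0.11 for the late genes. The largest differences were those of *Elk3* (1.43), *Rps6ka1* (-1.23), *Gadd45g* (1.11), *Plk3* (1.11) and *Ccn1* (1.04), with adjusted p = 0.859 for each by limma. Heat shock genes gave 0 calls of 11 tested by limma and by DESeq2, with *Hspa1b* (0.37), *Hsf1* (0.35) and *Hspa1a* (0.18) the most different.

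The genes whose profile over the libraries was most like the median profile of the 10 members were found among genes with a mean of at least 50, by the root mean square difference of centred log2 levels. Over the 9 libraries of the *Lhx6* table these were *A330074H02Rik* (0.42), *Pcdh10* (0.43), *Gm26672* (0.45), *Mogs* (0.46) and *Gm11824* (0.46), where the median over 12567 genes was 0.90. All 5 were highest in mutant 1, which follows from the choice, since the median profile itself was highest there. That profile was at 2.22 in mutant 1 and next highest in control 3, at 0.63. Over the 6 libraries of the *Mtg8* table they were *Gpr153* (0.08), *4921531C22Rik* (0.10), *St6galnac5* (0.12), *Grk3* (0.13) and *Ica1l* (0.14), where the median over 12308 genes was 0.52. No gene was named for both tables. The points of each profile are the same libraries that gave the members' own values.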

How the data were processed

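RNA was measured in 15 libraries, 1 embryo each. Trimming by the authors used fastp 0.20.1, alignment to GRCm38.p6 used STAR 2.7b, and reads per gene were counted with FeatureCounts 1.6.4 on GENCODE M23, after which sex-linked genes were removed. The signal the authors deposited is each gene's count divided by a DESeq2 size factor, in 2 tables normalized separately. Their comparison columns (fold changes with errors, statistics and p-values from DESeq2) were not used. The deposited exon length of each gene, another column, was used for levels per kilobase. Dividing by the value of 1 read gave back whole reads (100% of values within 0.01 of a whole number). Depth was 12218422 to 22053032 reads.

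Mutants and controls were compared within each table with limma 3.58.1 (R 4.3.3) on log2(normalized count + 1), with a mean-variance trend, keeping genes of mean 10 or more, two-sided, with Benjamini-Hochberg adjustment over all genes tested and a threshold of 0.05. Fold changes on this scale understate those of low genes. edgeR 4.0.16 (quasi-likelihood) and DESeq2 1.42.0 were run on the recovered reads. Single members were given exact permutation tests of the difference of log2 means, 20 in all. P-values measure the spread between embryos of each group. On simulated counts with changes of 1.5 on the log2 scale limma called 61.3% of 194 changed genes in the *Lhx6* design (16349 genes) and 62.7% of 193 in the *Mtg8* design (15872 genes). Of 129 calls in each design, 10 and 8 were of unchanged genes. The changed genes were drawn at random and no whole library was shifted, so these shares need not hold for members of wide spread. GC content is that of the longest GENCODE M21 transcript, found for 99.9% of tested genes.

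The members and lists were chosen with earlier results of these data known. Named genes are the 10 members, the 2 targeted genes, list genes called by limma or DESeq2 (otherwise up to 3 with the largest change) and the 5 genes per table most like the members. Of marker lists only sums are given, beside *Sst*, *Npy*, *Sox2*, *Fezf2*, *Neurod2*, *Emx1*, *Hspa8* and *Hspa1a*. These and *Ier5l*, *Ier5*, *Jund* and *Btg1* in the comparison of controls were chosen after their values were seen. No libraries of a group agreed within sampling noise (chi-square per gene of at least 10.7). Alternatives were equal totals, TMM factors, library quality weights, no trend in limma, pseudocounts of 0.5 and 10, a minimum mean of 50 or none, both count tools, the name style as a covariate, a replicate block, a block by the code shared by library names (chosen after seeing the data), and each library left out.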

Additional observations from a re-analysis of the deposited data

Results flagged for a closer look

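A total of 6 values of the *Lhx6* experiment stood apart from the rest of their group by Dixon's test of the gap to the nearest library, among 20 groups of 4 or 5 libraries tested. Chance alone flags about 1 group in 20 where values are normally distributed, which these skewed normalized counts are not. They lie in only 2 libraries. In control 3, *Fos* was at 1321 and *Fosb* at 13.8 normalized counts, with the gap taking up 0.914 and 0.930 of the range of the 4 controls. In mutant 1, *Fos* was at 1112, *Fosb* at 56.9, *Junb* at 142 and *Egr1* at 875, with 0.942, 0.935, 0.767 and 0.765 of the range of the 5 mutants. On the log2(normalized count + 1) scale, tried after seeing the data, only *Fos* in mutant 1 still stood apart (0.739). There the shares were 0.777 and 0.750 for *Fos* and *Fosb* in control 3, and 0.618, 0.462 and 0.241 for *Fosb*, *Junb* and *Egr1* in mutant 1. The *Mtg8* groups of 3 libraries were not given this test.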

How the results depend on the processing

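No member was called in the *Lhx6* table under any alternative. Of 201 member values with an adjusted p under the alternatives that keep every library, 180 kept their direction and side of the threshold. With the name style as a covariate, where the *Lhx6* effect is that of mutant 6, *Jun* turned to 0.53, *Egr1* to -3.33 and *Ier2* to 0.0247, and *Junb* in the *Mtg8* table to 0.10. That *Egr1* value, and the one from the block by name code below, rest on 1 read in mutant 6 and are not exact. Library quality weights turned *Zfp36* to -0.27 in the *Lhx6* table. In the *Mtg8* table *Arc*, at -0.01, turned to 0.00811 with a pseudocount of 10, 0.0234 with TMM factors, 0.0624 with equal totals, 0.0295 with weights, 0.0741 with edgeR and 0.0589 with DESeq2, and *Ier2* was called by DESeq2 (3.50).

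Genes called in the *Lhx6* table, 286, became 844 with weights, 811 with DESeq2 and 57 with the style, and the 0 of the *Mtg8* table became 1 with no minimum, 2 with a minimum of 50, 2 with weights, 1 with edgeR and 30 with DESeq2, of which 1 member. The cause was not tested.

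Replicate numbers occur in both groups for 3 pairs of the *Lhx6* table and 2 of the *Mtg8* table, but what the numbers stand for is not given. Deviations of same-numbered libraries correlated at -0.15, 0.00 and 0.07 and at 0.14 and 0.16. With the number as a replicate block, 86 genes were calls for *Lhx6* and 100 for *Mtg8*, where the fit has 1 residual degree of freedom. There 2 members were called, *Fos* (2.63, adjusted p = 1.62e-15) and *Ier2* (2.77, adjusted p = 6.73e-06), *Junb* turned to 0.32 and *Arc* to 0.28. A block by the code shared by library names, chosen after seeing the data, leaves mutant 6 against controls 1 and 2 in the *Lhx6* table and labelled mutant 2 against controls 1 and 2 in the *Mtg8* table, with 2 and 1 residual degrees of freedom. It gave 88 and 15 called genes and 0 members, with *Jun* at 0.71, *Egr1* at -3.28 and *Ier2* at 0.0780 in the *Lhx6* table, *Ier2* at 1.25 (adjusted p = 0.287) in the *Mtg8* table, and *Junb* at 0.12 and *Arc* at 0.12 there.

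Leaving out 1 library gave 159 (without control 1) to 491 (without mutant 6) genes and 0 to 0 members in the *Lhx6* table, with 174 and 173 genes without controls 2 and 4. In the *Mtg8* table it gave 0 to 86 genes and 0 to 1 members, both highest without labelled mutant 2, which made *Ier2* a call, and 1 gene without control 1 or control 2. Directions turned for *Zfp36* in the *Lhx6* table (-0.12 to 0.52, negative without mutant 1) and in the *Mtg8* table for *Fos* (-0.23 to 1.94, negative without control 4), *Junb* (-0.38 to 0.23, positive without control 2 or labelled mutant 3) and *Arc* (-0.24 to 0.28, positive without control 4 or labelled mutant 3). Members under about 20 reads per library (*Fosb*, *Arc*, *Nr4a1* and *Egr3* in most libraries) are limited by depth.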
